A study of Mus musculus with 4 samples.

Results

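The transcripts described here are the most abundant ones in the lysate of mouse primary hepatocytes, the main working cells of the liver, taken from the animal and kept in culture. Each stood at 300 FPKM or more in both input libraries, where FPKM is a level per kilobase of transcript and per library size, and its input level differed between proline and control by less than 1 on log2(FPKM + 1). Of the 21163 deposited Ensembl transcripts, 147 reached that level in both inputs, and 4 of them were left out because their input level differed by 1 or more. A further 6 were left out by limits on NONO IP minus input, 5 because it was at least 1 in both conditions and 1 because it was at most -2 in both. No transcript at this level came near the third limit, a control IP minus input of 4.9 or more. The remaining 137, which are 0.647% of all listed transcripts, are the members.

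The 4 libraries form 4 groups of 1 library each: lysate RNA (input) and RNA recovered with NONO (IP) from control hepatocytes labelled Ctrl, and the same pair from hepatocytes labelled Proline. All 4 are total RNA of cells described as liver mouse primary hepatocytes, and the sources used here name no strain, age, proline dose or treatment time. The series asks whether proline alters which mRNAs are held in paraspeckles. With 1 library per group no difference can be set against the spread between cultures, so no test was run and every comparison is between libraries; a mock IP was not analysed here.

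NONO binds RNA and belongs to paraspeckles, nuclear bodies built on a long non-coding RNA that can hold certain RNAs back from export. RNA immunoprecipitation recovers RNA with the protein, and setting it against the input shows whether a transcript is over- or under-represented there relative to the whole lysate. In hepatocytes the most abundant RNAs are known to include mRNAs for secreted plasma proteins such as albumin and apolipoproteins, mitochondrially encoded mRNAs and mRNAs of the translation machinery. The deposited tables give transcript identifiers without gene names, and 0 of the 21163 identifiers were found in the gene, promoter or miRNA tables at hand, so which of these RNAs the members are could not be told. The labelled cell type could not be checked against its markers for the same reason, no sequence is printed, and transcripts are named below by their length, recovered from the deposited values, with a level added where members share a length.

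The input libraries held 22188003 reads in control and 20826758 in proline, and the IP libraries 1786928 and 954824, where a read means whatever unit the authors counted, be it a single read or a pair. All 137 members were well covered. Their reads ran from 1812 to 245573 in the control input, from 1417 to 294498 in the proline input, from 93 to 16251 in the control IP and from 46 to 8721 in the proline IP. Intervals given below are 95% intervals of an FPKM ratio from these reads. They cover counting error only, and variation between cultures and PCR copies lie outside them.

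Because the rule chose the members for a high input level, their share of the lysate reads is set by the choice, and a smaller share in the IP follows from it in part. They held 18.42% of all control input reads (exact 95% binomial interval 18.40% to 18.43%) and 19.45% of all proline input reads (19.44% to 19.47%). In the IPs their share was 11.13% in control (11.09% to 11.18%) and 11.60% in proline (11.53% to 11.66%). The share in the IP was 0.604 of that in the input in control and 0.596 in proline. The totals include 1 transcript of 3894 nt, no member, with 8.19% of control IP reads and 17.4% of proline IP reads. In the inputs it held 0.0118% in control and 0.0290% in proline. Shares without it were not taken, so the nearness of 0.604 to 0.596 holds for these totals only. On the FPKM scale, which counts each transcript per length, the members made up 31.8% of the control input total, 21.6% of the control IP, 30.6% of the proline input and 20.9% of the proline IP.

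Reads were unevenly spread within the members. In the control input 17 of the 137 transcripts held 50% of the members' reads, and in the proline input 13 did. The corresponding numbers in the IPs were 15 in control and 13 in proline. The top 10 by reads held between 39.8% of the members' reads in the control input and 46.0% in the proline input. Levels in the control input ran from 302 FPKM over a median of 631 to 6793, a 22.5-fold range, and in the control IP from 84.2 over a median of 387 to 4471, a 53.1-fold range. In the proline libraries they ran from 304.0 over 531 to 9152 FPKM in the input and from 94.1 over 341 to 4455 in the IP. Members were therefore more widely spread in either IP than in its input, which the rule bounds from below.

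The transcript highest in both inputs was ENSMUST00000082402, of 1545 nt. Its inputs were 6793 FPKM in control and 9152 in proline, and its IPs 2076 and 1975. Both IPs lay far below both inputs. Its IP level was 0.306 of the input level in control (counting interval 0.298 to 0.314) and 0.216 in proline (0.208 to 0.224), which placed it among the 5 members with the lowest mean IP over input. It fell from 1.05% of control input reads to 0.321% of control IP reads, and from 1.41% to 0.305% in proline. The transcript next in mean input level, of 2034 nt, was close to its input: 5441 FPKM in the control input and 5510 in the proline input, and 4471 and 4455 in the IPs. The ratios were 0.822 (0.809 to 0.835) in control and 0.809 (0.791 to 0.826) in proline. It held the highest IP level of all members in both conditions, and among all listed transcripts it ranked 2 in control and 3 in proline.

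The other 8 of the 10 most abundant members differed as much among themselves. A transcript of 1810 nt had a control input of 4568 FPKM and a proline input of 5483, and IPs of 2085 and 2872. One of 2571 nt stood at 3287 and 5217 FPKM in the control and proline inputs and at 3030 and 3553 in the IPs. In control its IP was 0.922 of the input (0.906 to 0.938), and in proline, with the higher input, 0.681 (0.667 to 0.696). By contrast, a 1801-nt transcript was lower in the proline input, at 2113 against 3483 FPKM, with IP levels of 2023 in control and 1901 in proline, so its ratio went from 0.581 (0.567 to 0.596) to 0.900 (0.868 to 0.932). For both transcripts the IPs lay nearer to each other than the inputs did.

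A transcript of 1499 nt was the exception among the 10, with the IP above the input in both conditions. In control its input was 2204 FPKM and its IP 3448, a ratio of 1.56 (1.53 to 1.60), and at 3251 and 3980 in proline, a ratio of 1.22 (1.19 to 1.26). The remaining 4 were lower in both IPs. The 1920-nt transcript stood at 3385 and 5072 FPKM in the control and proline inputs and at 1447 and 1917 in the IPs, and the 1794-nt one at 3727, 2851, 1598 and 1418 in the same order. A transcript of 915 nt stood at 2266 and 2595 FPKM in the inputs and at 1650 and 1639 in the IPs. For the last, of 1437 nt, the inputs were 2151 and 2497 FPKM and the IPs 1004 and 1124. Of the 10, 9 were thus lower in the IP beyond counting error in both conditions, and 5 were at least 2-fold lower in control.

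**Figure D1:**
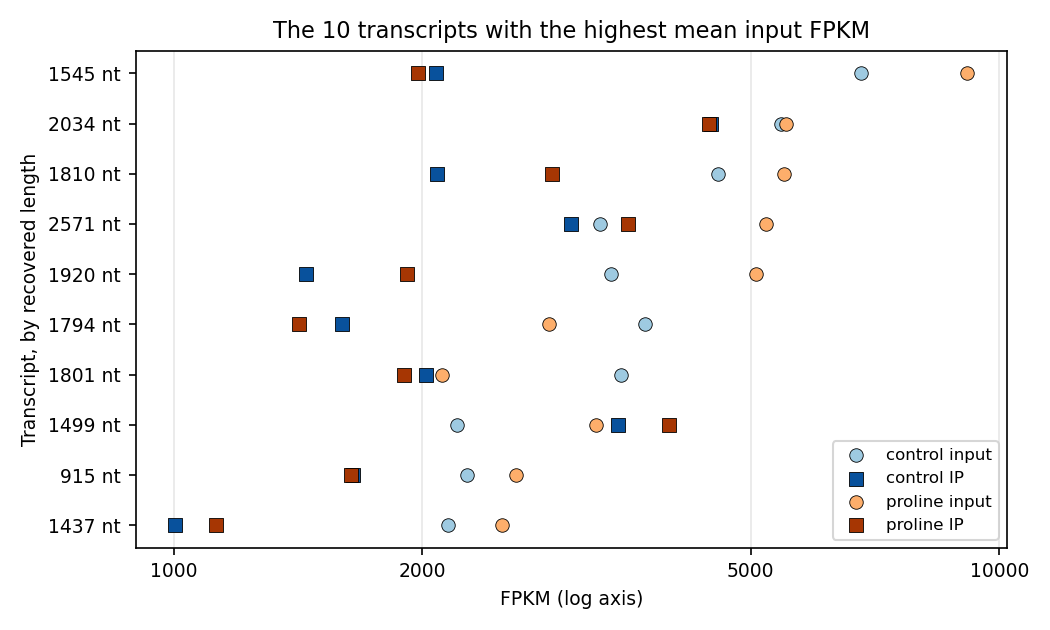
FPKM (x axis, log scale) of the 10 members with the highest mean input level in each of the 4 libraries, 1 point per library, ordered by mean input level from top to bottom and labelled by length. Circles (inputs) lie to the right of squares (IPs) of the same condition for 9 of the 10, and the 1499-nt transcript has its IP squares to the right of the circle of the same condition.

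Over all 137 members, levels in the NONO IP lay mostly below those in the input of the same condition. In control the IP was lower by at least 2-fold for 62 members (45.3%) and higher for 2 (1.46%). The shares were 14.6% and 13.4% over the 12168 transcripts whose mean FPKM was 1 or more. In proline it was lower for 47 (34.3%) and higher for 1 (0.730%), where 19.5% and 8.88% of all were. The counts of lower members depend on the scaling of the libraries. In proline 31 were left with equal FPKM totals, 24 (17.5%) with the most-read IP transcript out of the totals and 22 (16.1%) with differences centred on the median of all transcripts, and in control 41, 48 and 46. Shares over all transcripts were not taken under these scalings, and the 14.6% and 19.5% above hold for FPKM as deposited only. Had the limits on IP minus input not been set, 7 transcripts would count as 2-fold higher in control and 6 in proline. All 137 members passed the filter on mean FPKM. The rule limits both differences and the input is their denominator, so these counts describe the choice of members as well as the IP, and nothing is read from them. The median difference on log2(FPKM + 1) was -0.87 in control, with quartiles of -1.22 and -0.46, and -0.71 in proline, with quartiles of -1.12 and -0.34. Over all 12168 transcripts the medians were -0.14 and -0.31.

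Counting error was small beside most of these differences. In control 124 members were lower in the IP beyond counting error (36.9% of all transcripts were), 10 higher (27.3% of all) and 3 within it. In proline 110 were lower (37.2% of all), 10 higher (16.0% of all) and 17 within it. Such calls depend on read number. The members' median IP reads were 733 in control and 343 in proline, against 46 and 22 over all transcripts. Of 273 transcripts at 100 to 300 FPKM in both inputs, chosen by the same limits, 229 were lower in control and 227 in proline. Their median IP reads were 330 and 165. Both conditions together gave 109 members lower beyond counting error in both (26.0% of all) and 8 higher in both (12.2% of all). By sign alone 121 lay below 0 in both conditions, 9 above 0 in both and 7 on opposite sides. Taken singly, 92.0% of the members lay below 0 in control and 89.8% in proline, against 56.2% and 64.1% of all. At least 2-fold lower in both were 39 members (8.47% of all), 23 were so in control alone (6.08% of all), 8 in proline alone (11.0% of all) and 67 in neither. Whether the calls made in 1 condition alone differ between conditions was not tested.

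**Figure D2:**
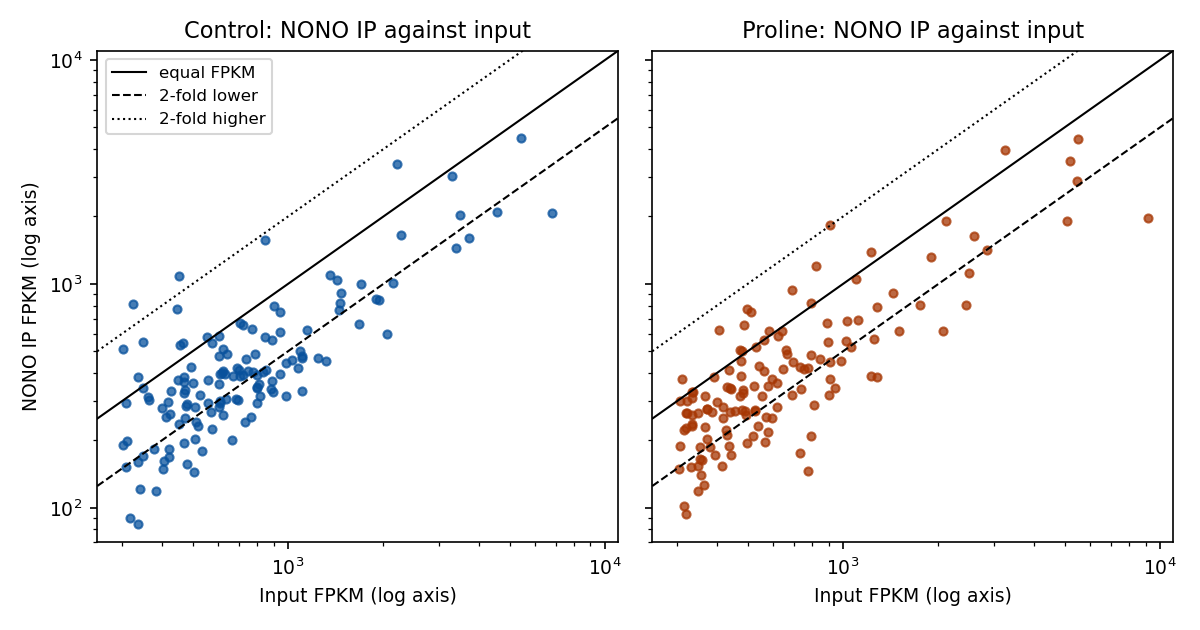
NONO IP level against input level in FPKM (both axes log) for the 137 members, control on the left and proline on the right, 1 point per transcript, with lines at equal level and at 2-fold lower and higher. Most points lie under the solid line in both panels, and 62 in control and 47 in proline lie on or under the dashed 2-fold line as counted on log2(FPKM + 1) with FPKM as deposited; centred on the median of all transcripts these counts are 46 and 22.

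A few members went the other way. The highest mean IP over input among the members belonged to ENSMUST00000023583, of 1484 nt, with an input of 325 FPKM and an IP of 814 in control, and 496 and 769 in proline. The ratios were 2.50 (2.39 to 2.62) in control and 1.55 (1.46 to 1.65) in proline, and the IP levels were close while the proline input was the higher one. Next was ENSMUST00000174064, of 1408 nt, with an input of 844 FPKM and an IP of 1570 in control, and 906 and 1839 in proline. No other member reached a 2-fold higher IP in proline, and this one did, with ratios of 1.86 (1.80 to 1.92) in control and 2.03 (1.95 to 2.11) in proline. A transcript of 1361 nt followed, going from 452 FPKM in its control input to 1090 in its IP, a ratio of 2.41 (2.31 to 2.51), and from 823 to 1206 in proline, a ratio of 1.46 (1.39 to 1.54). Those of 1072 nt and 532 nt completed the upper 5, with ratios of 1.69 and 1.59 in control and 1.46 and 1.53 in proline.

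At the lower end stood ENSMUST00000135573, of 2294 nt, with an input of 536 FPKM and an IP of 179 in control, and 774 and 147 in proline. Its ratio was 0.334 (0.310 to 0.359) in control and 0.189 (0.169 to 0.211) in proline, the lowest of any member in proline. The lowest in control was that of a 3288-nt transcript, which went from 335 FPKM in the input to 84.2 in the IP, a ratio of 0.251 (0.229 to 0.275). In proline the same transcript had 315 and 102 FPKM, which is a ratio of 0.323 (0.288 to 0.360). A 1089-nt transcript went from 504 to 145 FPKM in control and from 733 to 176 in proline. A 1169-nt transcript gave nearly the same values in both conditions, with 2060 and 2068 FPKM in the control and proline inputs and 599 and 617 in the IPs. The limits on IP minus input bound both ends, so the lowest and highest ratios are those of the members only.

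The members were chosen by input level, so their input ranks are set by the rule and lower ranks in the IP are in part built in. Of the 137 members, 116 ranked among the top 137 of all listed transcripts in the control input and 109 in the proline input. In the IPs the numbers were 90 in control and 87 in proline. The lowest-ranked member stood at 188 in the control input and 181 in the proline input, but at 536 and 443 in the respective IPs. Across the 137 transcripts, which share libraries and are no replicates, log2(FPKM + 1) in the IP and the input had a Pearson correlation of 0.79 in control and 0.82 in proline. The proline and control inputs had 0.88, and the proline and control IPs 0.97. The rule truncates the input levels, and over all 12168 transcripts the values were 0.92 between the inputs and 0.93 between the IPs. Between IP and input they were 0.84 in control and 0.83 in proline.

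The difference between IP and input was shared between conditions. IP minus input in proline and in control, which come from separate library pairs, correlated at a Pearson's r of 0.83 and a Spearman's rho of 0.82 across the 137 members, given as a description. In the transcripts at 100 to 300 FPKM in both inputs, chosen by the same limits, the Pearson correlation was also 0.83 (n = 273). At 20 to 100 FPKM it was 0.74 (n = 2118), and over all 12168 transcripts 0.70. Opposite signs, each beyond counting error, were found for 3 of the members (2.19%, against 2.98% of all transcripts). They were of 388, 780 and 861 nt, the last at 1360 FPKM in the control input. With the most-read IP transcript out of the totals, or with differences centred on the median, the 861-nt one kept its opposite signs and the other two did not. The number of such members was then 9 and 10.

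**Figure D3:**
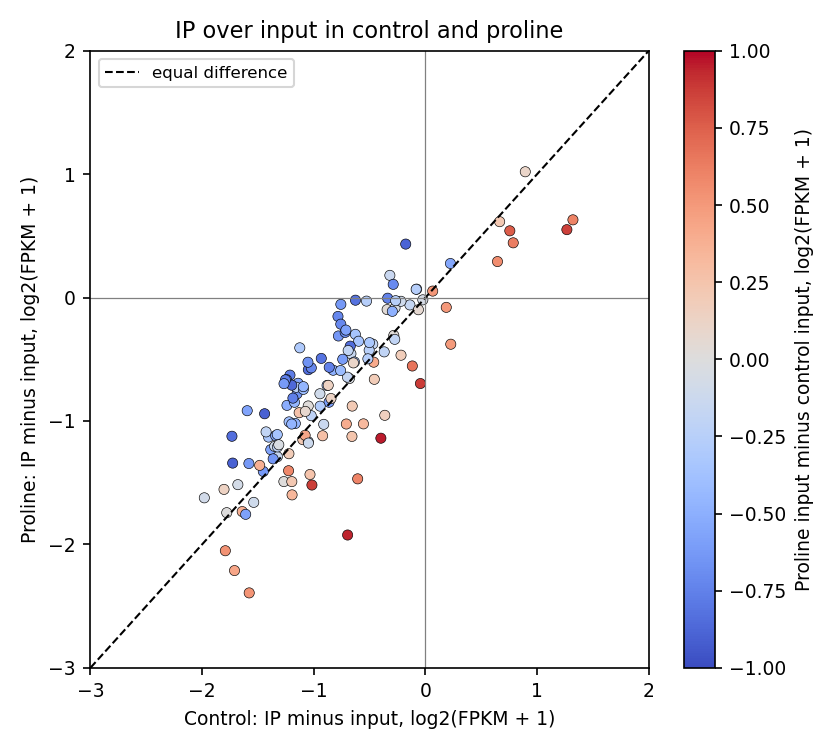
IP minus input on log2(FPKM + 1) in proline (y axis) against control (x axis) for the 137 members, coloured by proline input minus control input. Points spread along the dashed line of equal difference, with 121 below 0 in both conditions and 9 above 0 in both; the inputs enter both axes, so the order of the colours across the line follows in part from how the differences are made.

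Compared with transcripts of the next lower level, the members were little different in IP over input. At 100 to 300 FPKM in both inputs the median of IP minus input was -0.86 in control and -0.85 in proline, with 114 (41.8%) and 102 (37.4%) of 273 at least 2-fold lower. At 20 to 100 FPKM the medians were -0.61 and -0.63, with 528 (24.9%) and 592 (28.0%) of 2118 at least 2-fold lower. The control median of the members lay next to that of the 100 to 300 FPKM class, and their proline median lay between those of both lower classes. None of these differences between classes was tested. The input level that defines the classes is also the denominator, so a lower IP over input at higher input is in part built in.

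**Figure D4:**
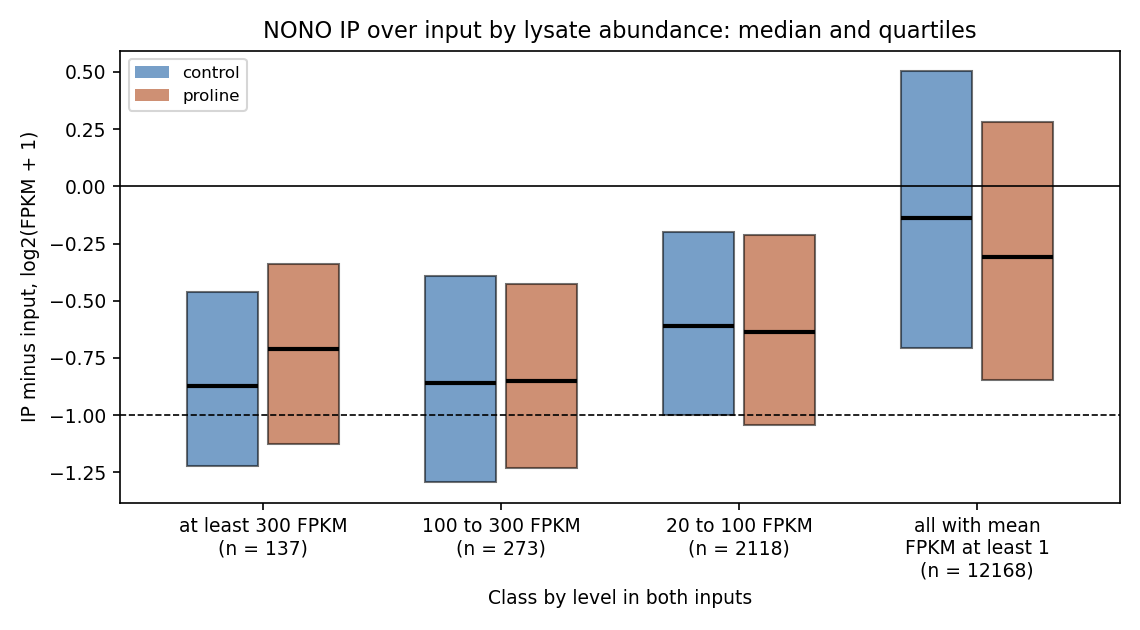
IP minus input on log2(FPKM + 1) by class of input level, in control and proline; the thick line is the median and the box spans the quartiles over transcripts. The medians of the members are -0.87 in control and -0.71 in proline, against -0.86 and -0.85 at 100 to 300 FPKM, -0.61 and -0.63 at 20 to 100 FPKM, and -0.14 and -0.31 over all 12168 transcripts.

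The members were short, and their median IP over input varied among length classes without a steady order. Their median length was 1089 nt (quartiles 768 and 1633), against 2796 nt over the 12168 transcripts, and 63 of them (46.0%) were under 1000 nt against 8.71% of all. At 100 to 300 FPKM the median length was 1977 nt and 19.0% were under 1000 nt. Median IP minus input in control was -0.37 for the 13 members under 500 nt, -0.93 for the 50 at 500 to 1000 nt, -1.02 for the 57 at 1000 to 2000 nt, -0.67 for the 13 at 2000 to 4000 nt and -0.51 for the 4 longer ones. In proline the medians were -0.28, -0.68, -0.87, -0.64 and -0.91 in the same order. At 100 to 300 FPKM the control medians were -0.76 for the 8 transcripts under 500 nt, -0.64 for the 44 at 500 to 1000 nt and -0.89 for the 88 at 1000 to 2000 nt. The outer classes are thinly filled, and over all 137 the Pearson correlation with log2 length was -0.05 in control and -0.19 in proline.

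Across 4 bins of mean input, level within the class gave no steady order either, and the upper 2 bins are thinly filled. The median of IP minus input in control was -0.72 for the 63 members with a mean input of 300 to 600 FPKM, -1.05 for the 53 at 600 to 1200, -1.01 for the 12 at 1200 to 2400 and -0.78 for the 9 at 2400 or more. In proline the medians were -0.50, -0.85, -0.91 and -0.66. With an input limit of 500 FPKM instead of 300, the 66 members left had lower medians, -1.04 in control and -0.86 in proline.

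Between the inputs the rule allows only changes below 1, so what follows is a description of the members. The limit leaves 0 members at 2-fold, where 9.07% of all transcripts were higher by as much in the proline input and 3.19% lower. The proline input was lower than the control input for 88 members (64.2%, against 50.5% of all) and higher for 49. The median difference was -0.19, the lowest value -0.90 and the highest 0.96. Of the falls 85 were beyond counting error, and so were 46 of the rises; over all 12168 transcripts 38.0% were lower and 36.0% higher beyond counting error, with a median of -0.01. Changes of at least 0.5 were found for 38 members downward (15.4% of all) and 16 upward (19.8% of all). Those shares of all include the 3.19% and 9.07% at 2-fold, which the rule keeps out of the members, so the measures are unlike. Of the top 10 by mean input level, 8 were higher in the proline input, 1 of them, of 2034 nt, by only 0.018. The mean includes the proline input, so members that rose are favoured in that list and its contrast with the rest is in part built in. In such bulk libraries fewer cells of a type and less RNA per cell cannot be told apart.

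Between the NONO IPs, a comparison the rule did not use directly, none of the 137 members reached a 2-fold difference in either direction. The rule limits the input change and IP minus input, of which this difference is made up, so the count is in part built in. Of all 12168 transcripts, which carry no such limits, 2.96% differed by that much upward in proline and 6.25% downward. The members had a median of 733 reads in control and 343 in proline, against 46 and 22 over all transcripts, and the part of read number in these counts was not tested. Among the 273 transcripts at 100 to 300 FPKM, with medians of 330 and 165 reads, 1 was at least 2-fold higher and 1 lower. Among the 2118 at 20 to 100 FPKM, with medians of 118 and 59 reads, 10 were higher and 28 lower. The members' differences ran from -0.73 to 0.55 with a median of -0.10 (-0.15 over all transcripts) and a standard deviation across transcripts of 0.26. With FPKM as deposited 127 of 137 lay within 0.5 of no difference, where 83 did between the inputs. The standard deviation was 0.30 at 100 to 300 FPKM and 0.60 over all transcripts, for which the count within 0.5 was not taken.

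With FPKM as deposited, smaller differences between the IPs went beyond counting error for part of the members. These calls were not recomputed under the other scalings. The proline IP was lower than the control IP beyond counting error for 42 members (14.2% of all transcripts) and higher for 27 (5.80% of all). For 68 it was within counting error. With fewer reads, 57 of the 273 transcripts at 100 to 300 FPKM were lower beyond it and 29 higher. Lowest among the members was a transcript of 946 nt, whose IPs were at 157 FPKM in control and 94.1 in proline. The ratio was 0.600 (0.465 to 0.769) on 265 and 85 reads. Its inputs were 480.5 FPKM in control and 320.3 in proline, so input and IP moved the same way. Those of 1270, 1117, 1538 and 1224 nt came next, with IP ratios between 0.663 and 0.674 and input ratios between 0.555 and 0.656. The largest rise was that of the 1072-nt transcript, from 510.0 to 746 FPKM, a ratio of 1.46 (1.33 to 1.61), with inputs of 302 and 513 FPKM. After it came transcripts of 1496 nt (ratio 1.42, 1.31 to 1.53), 995 nt (1.42, 1.15 to 1.75), 1810 nt (1.38, 1.33 to 1.43) and 860 nt, at 1094 FPKM in the control input (1.34, 1.20 to 1.49). The last of these rose in the IP while its input went down to 888.5 FPKM.

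The balance of rises and falls between the IPs depends on how the libraries are scaled. With FPKM as deposited 89 members (65.0%) were lower and 48 higher in the proline IP, where 62.8% of all transcripts were lower. A single transcript of 3894 nt that is no member took 8.19% of the control IP reads and 17.4% of the proline IP reads. With its reads left out of the totals 53 members were lower and 84 higher, and the median went from -0.10 to 0.051. With differences centred on the median over all transcripts 55 were lower and 82 higher, and the median was 0.047. No direction is therefore given for the members as a whole. The count of members at 2-fold was 0 in both directions under these scalings too.

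With FPKM as deposited, the IPs of the members followed the inputs with a smaller change. The difference between the IPs had the same sign as that between the inputs for 104 of 137 members, and it was the smaller one for 111. It had a slope of 0.36 on the difference between the inputs, with a Pearson's r of 0.64 and a Spearman's rho of 0.67. These are across transcripts and serve as a description. The slope was 0.33 at 100 to 300 FPKM and 0.31 at 20 to 100 FPKM, with Pearson correlations of 0.42 and 0.31, and 0.25 with 0.29 over all 12168 transcripts. Of the 38 members lower in the proline input by at least 0.5, 36 were lower in the proline IP. Their median change was -0.69 between the inputs and -0.31 between the IPs. Of the 16 higher by at least 0.5, 12 were higher between the IPs, and the medians were 0.62 and 0.23. None of these counts was taken over all transcripts or under another scaling, so they describe the members with FPKM as deposited only. The other scalings change the sign of the IP difference for part of the members, with 53 or 55 lower instead of 89.

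**Figure D5:**
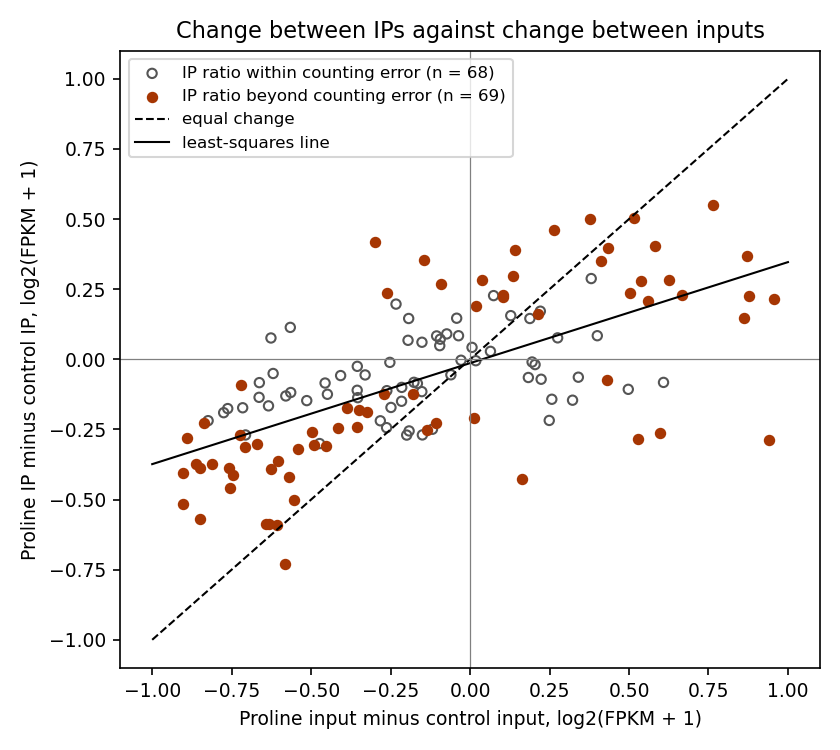
Proline IP minus control IP (y axis) against proline input minus control input (x axis), both on log2(FPKM + 1), for the 137 members. Filled points are the 69 whose IP ratio, with FPKM as deposited, is beyond counting error and open points the 68 within it. The points follow the solid least-squares line, of slope 0.36, and stay between -0.73 and 0.55 on the y axis while the x axis runs from -0.90 to 0.96.

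The change in NONO enrichment, which is IP minus input in proline less the same in control, combines all 4 libraries. Only 1 member changed by at least 2-fold: enrichment was lower for 1 (0.730%) and higher for 0, where 13.8% and 4.17% of all 12168 transcripts were. The rule limits the terms of this difference, so the counts are a description. The single case was a transcript of 1825 nt, at 413 FPKM in the control input and 793 in the proline input, and at 254 and 208 in the IPs. The input rose and the IP fell, and the enrichment in proline was 0.426 of that in control (0.377 to 0.483). Values over the members ran from -1.23 to 0.72 with a median of 0.14, where the median over all transcripts was -0.16. The members' median was 0.30 both with differences centred and with the most-read IP transcript out of the totals, each with 108 members higher and 29 lower, and 0.055 for the 66 members at an input limit of 500 FPKM. Enrichment was higher in proline for 92 members and lower for 45 (32.8%), where 60.2% of all transcripts were lower. Beyond counting error, with FPKM as deposited, it was higher for 55 members (10.6% of all) and lower for 28 (20.3% of all). With fewer reads, 66 of the 273 transcripts at 100 to 300 FPKM were higher beyond it and 50 lower.

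Members with the largest changes in enrichment were mostly those whose input moved. After the 1825-nt transcript the lowest were those of 1815, 2294, 4564 and 1361 nt, with enrichment ratios of 0.550, 0.567, 0.598 and 0.608 and proline inputs that were 1.51, 1.44, 1.94 and 1.82 times the control input. The 4564-nt transcript had a control input of 644 FPKM and a proline input of 1250, and IPs of 488 and 567. At the other end stood transcripts of 860 nt at 1094 FPKM in the control input (1.65, 1.47 to 1.84), 499 nt (1.63, 1.46 to 1.82), 1437 nt at 731 FPKM in the control input (1.60, 1.41 to 1.83), 1801 nt (1.55, 1.48 to 1.62) and 780 nt (1.53, 1.37 to 1.71). All 5 were lower in the proline input, at 0.812, 0.648, 0.675, 0.607 and 0.539 of the control input. The 499-nt transcript shows the pattern in its levels, with 1694 and 1097 FPKM in the inputs and 1001 and 1056 in the IPs. Of the 88 members lower in the proline input, 81 had a higher enrichment, and of the 49 higher in it 38 had a lower one. The input is a term of the enrichment, so these counts follow in part from its definition. They were not taken over all transcripts or under another scaling.

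The members nearest to the limit of 300 FPKM in the lower of their inputs were of 1072 nt (302 FPKM), 1250 nt (302 FPKM) and 640 nt (304.0 FPKM). Just outside lay transcripts of 732 nt (299 FPKM), 991 nt (298 FPKM) and 624 nt (297 FPKM). Their IP minus input in control was 0.76, -0.66 and -1.20 inside and -1.13, -0.93 and -0.71 outside. The 6 transcripts left out by the limits on IP minus input had inputs between 301 and 933 FPKM. The 5 enriched ones, of 720 to 984 nt, stood between 898 and 3958 FPKM in the control IP, and the depleted one, of 4129 nt, went from 384 FPKM in the control input to 90.0 in its IP.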

How the data were processed

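The authors deposited 1 table of FPKM values per library, per the file headers, and the submitters' processing notes name the builds GRCm38 and mm10. Aligner, counter and annotation release: not given in the sources used here. Per the labels' protocols, lysate in polysome lysis buffer was incubated with antibody on Dynabeads, part was kept as input, and libraries were made with an NEBNext Ultra kit. Library totals, transcript lengths and whole reads were recovered from the FPKM steps, taking the smallest length that gives whole reads in all libraries, so reads can be too few by a common factor; they were found for all 137 members, and the steps were tested on simulated data. Differences were taken on log2(FPKM + 1) with Python 3.11.15, pandas 2.3.3 and scipy 1.17.1; ratio intervals between 2 libraries are exact (Clopper-Pearson), and those of enrichment use a normal approximation with 0.5 added to each read number. A read number of 0 allows up to 3 reads, which is 1.35e-05% of the control input and 0.000314% of the proline IP; no member was at 0. Background counts use the 12168 transcripts whose mean FPKM was 1 or more. Named members are the 10 highest by mean input and the 5 highest and 5 lowest by IP change, by mean IP over input and by change in enrichment. The members, lists and rules were chosen with earlier results of these data known. Gene lists and cell type markers were not measured, since no identifier could be named.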

Additional observations from a re-analysis of the deposited data

Results flagged for a closer look

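For 3 members (2.19%) the ratio of IP over input lay on opposite sides of 1 in control and in proline, each beyond counting error. The share was no higher than the 2.98% of all 12168 transcripts, so such cases are not particular to the members. With 1 pair of libraries on each side, the difference was not tested. A transcript of 388 nt had a ratio of 1.17 (1.05 to 1.30) in control and 0.769 (0.662 to 0.890) in proline, a change of -0.60 on the log2 scale, with inputs of 467 and 660 FPKM and IPs of 547 and 507 FPKM. A transcript of 861 nt had 0.802 (0.763 to 0.842) and 1.13 (1.07 to 1.20), a change of 0.50, with inputs of 1360 and 1229 FPKM and IPs of 1091 and 1393 FPKM. A transcript of 780 nt had 0.885 (0.832 to 0.940) and 1.35 (1.23 to 1.48), a change of 0.61, with inputs of 903 and 487 FPKM and IPs of 799 and 658 FPKM. These calls depend on the scaling, which was checked after the data were seen. With the most-read IP transcript out of the totals the 388-nt transcript had 0.931 (0.800 to 1.08) in proline and the 780-nt one 0.964 (0.906 to 1.02) in control, so neither was on opposite sides beyond counting error, while the 861-nt one had 0.873 (0.831 to 0.917) and 1.37 (1.29 to 1.45). Centred on the median the same 2 calls were lost, and with equal FPKM totals that of the 780-nt transcript. Under these scalings other members lay on opposite sides: the number was 9 without the most-read transcript, 10 when centred and 6 with equal totals.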

How the results depend on the processing

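Of 76 counts recomputed under an alternative, 62 stayed within 1.5 times the reported one, 27 of them counts of 0 that stayed 0. An input limit of 200 FPKM gave 220 members and one of 500 FPKM gave 66. Members at least 2-fold lower in the control IP than in its input were 62 of 137 (45.3%). They numbered 41 (29.9%) with equal FPKM totals and 34 of 66 (51.5%) at the 500 FPKM limit. In proline they were 47 of 137 (34.3%), and 31 with equal totals. With differences centred on the median 22 were left, and 24 with the most-read IP transcript out of the totals. At the 200 FPKM limit they numbered 75 of 220 (34.1%), and at 500 they numbered 28 of 66 (42.4%). The input limits change the number of members, so these counts are to be read by their shares. Without the exclusions on IP minus input 7 members were at least 2-fold higher in control and 6 in proline, and at the 500 FPKM limit 0 were in control. Enrichment was at least 2-fold lower for 3 of 220 members (1.36%) at the 200 FPKM limit and for 0 of 66 at 500. Of 32 medians 30 kept their sign; that of proline IP minus control IP became 0.047 when centred and 0.051 without the most-read transcript. The cause of these moves was not tested, beyond the number of members that each limit admits. Centring shifts the median of all transcripts by 0.14 in control IP over input, 0.31 in proline, 0.15 between the IPs and 0.16 in enrichment. Without the filter on low values, the background counts of higher transcripts were 3507 instead of 1633 in control IP over input, 2196 instead of 1080 in proline, 733 instead of 360 between the IPs and 885 instead of 508 in enrichment, and those of lower ones 1839 instead of 761 between the IPs and 2856 instead of 1677 in enrichment. No paired analysis was possible because each group holds 1 library. The least-read member of the proline IP had 46 reads.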
